A study of Mus musculus with 6 samples.

Results

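A small fraction of serum-grown GL261 mouse glioma cells gave no captured UMI of a fixed set of proliferation genes, and these cells were compared with cells of the same libraries that were rich in them. The set, called the rule genes below, held 7 genes: Mki67, Top2a, Cdk1, Birc5, Ube2c, Rrm2 and Ccnb1. Cells were barcodes with at least 8000 UMIs (unique molecular identifiers, each standing for 1 captured RNA molecule), at least 500 genes and under 10% of UMIs from mitochondrial genes. Cells were chosen by their own counts of the rule genes. The zero-count cells held 0 UMIs of the 7 genes in total, and the cycling cells held 10 or more. There were 173 zero-count cells among 7975 GL261 cells, and 22868 cells passed the same filters in the whole series. Replicate 1 gave 97 of 3875 cells (2.50%) and replicate 2 gave 76 of 4100 (1.85%). The cycling cells numbered 2731 and 3092, and 1047 and 932 cells with 1 to 9 UMIs belonged to neither class.

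GL261 is an established mouse glioblastoma line, grown here in a medium with fetal calf serum. The same line kept in a defined stem cell medium forms the GL261-GSCs cultures (glioma stem-like cells, dissociated as neurospheres), which served as the comparison. The 2 GL261 and 4 GL261-GSCs libraries were made with the 10x Genomics 5′ single-cell kit, and the labels name both cells and nuclei as possible input. No treatment or genetic change was labelled. The labels do not say whether the replicates were separate cultures. The p-values measure how the difference between zero-count and cycling cells varied between these libraries, and that spread may be technical. The same rule applied to GL261-GSCs gave 388 zero-count cells among 14893 (36, 71, 157 and 124 in replicates 1 to 4) and 9840 cycling cells.

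The mammalian cell cycle runs through G1, DNA synthesis (S), G2 and mitosis. D cyclins with their kinases inactivate the retinoblastoma family in G1, and E2F factors then switch on replication genes. Genes of mitosis follow later, under the DREAM complex, B-MYB and FOXM1, and their mRNAs are cleared as a cell divides and re-enters G1. A cell without mitotic transcripts can therefore be resting, in early G1, or simply shallowly sampled, and a count of 0 does not tell these apart. Slowly dividing cells are of interest in glioma because they can persist where dividing cells are killed.

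Depth moved with the classes. Median UMIs per cell were 13125 and 11350.5 in the zero-count cells, against 17854 and 15331.5 in the cycling cells of replicates 1 and 2. When each GL261 cell was thinned to 8000 UMIs before the rule was applied, 6.35% and 3.56% of the cells held 0 UMIs. Among shallower cells of 7000 to 8000 UMIs, below the limit, 9.93% and 4.85% held 0 UMIs, and 6.16% and 5.26% did among cells of 8000 to 9000 UMIs. The share of zero-count cells is therefore a share at this depth, although replicate 1, whose GL261 cells had the higher median of 16880 UMIs against 14656, also had the higher share. The boundary was not a gap: 193 and 110 cells held 1 UMI, beside the 97 and 76 with none, and 52 and 77 cells held 9 UMIs beside 70 and 53 with 10. The median GL261 cell held 25 and 30 UMIs of the rule genes. The median mitochondrial share was 1.02% and 0.930% in the zero-count cells and 0.938% and 0.913% in the cycling cells. The libraries held 80899005 to 121309232 UMIs in all. Replicates 1 and 2 of GL261 shared 23 cell barcodes, none of a zero-count cell.

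Over GL261 libraries the mean share was 2.18% ± 0.459 (SD, n = 2), and over GL261-GSCs it was 3.18% ± 2.69 (SD, n = 4). The shares of the GL261 libraries lay inside the GL261-GSCs range of 0.999% to 6.95%. A 2-sided exact permutation test over the 6 libraries gave p = 0.80, where the smallest p its 15 arrangements allow is 0.067. After thinning to 8000 UMIs the shares still ran from 2.54% to 9.47% over the 6 libraries. The test cannot reach 0.05 in this design, so it does not show whether the shares of the cultures differ.

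In the cycling cells Ccnb1, which encodes cyclin B1, stood at 44.0 and 48.8 CPM (UMIs scaled to a common total of each summed class), and Ube2c, which encodes a ubiquitin-conjugating enzyme of the anaphase-promoting complex, stood at 729.7 and 863 CPM. Without thinning, a cycling cell held on average 13.1 and 13.4 UMIs of Ube2c and 9.92 and 8.88 of the topoisomerase gene Top2a. It held 6.95 and 6.57 UMIs of Mki67, the gene of the Ki-67 antigen. These values describe the choice and are not a result. Free RNA, read from barcodes of at least 100 and under 1000 UMIs, held Ube2c at 728 and 867 CPM, and its part in the choice of the cells was not tested.

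Because late cell cycle genes share promoter letters, the 120 bases before the RefSeq start (build GRCm38.p6, to which mm10 corresponds) are shown for genes whose transcripts define or track the classes. The motifs searched on both strands were CCAAT, bound by NF-Y, and TTTGAA and TTTAAA, the letters of the cell cycle homology region read by DREAM and B-MYB. Capitals mark a match, and ATTGG and TTCAAA are the same letters on the other strand. Top2a, Cdk1, Ube2c and Ccnb1 are rule genes and were picked for display after their matches were known. Cenpf, Hmmr and Prc1 are mitosis genes with small p-values that the promoter table holds. The windows of the rule gene Birc5 and the mitosis gene Anln held no match. They are not printed, nor are those of the rule genes Mki67, with TTTGAA at 2 places, and Rrm2, with 1 CCAAT. The printed windows lie at Top2a chr11:99024190-99024309 (minus strand), Cdk1 chr10:69352913-69353032 (minus strand), Ube2c chr2:164769809-164769928 (plus strand), Ccnb1 chr13:100786487-100786606 (minus strand), Cenpf chr1:189688087-189688206 (minus strand), Hmmr chr11:40733438-40733557 (minus strand) and Prc1 chr7:80294331-80294450 (plus strand), each printed in the direction of its gene.
Top2a: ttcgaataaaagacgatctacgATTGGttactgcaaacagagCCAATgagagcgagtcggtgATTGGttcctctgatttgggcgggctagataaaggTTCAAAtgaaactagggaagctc
Cdk1: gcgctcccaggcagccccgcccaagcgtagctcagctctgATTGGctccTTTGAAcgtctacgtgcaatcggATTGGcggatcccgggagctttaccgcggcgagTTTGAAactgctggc
Ube2c: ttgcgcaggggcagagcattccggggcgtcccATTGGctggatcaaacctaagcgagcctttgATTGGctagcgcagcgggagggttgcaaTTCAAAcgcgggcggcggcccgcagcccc
Ccnb1: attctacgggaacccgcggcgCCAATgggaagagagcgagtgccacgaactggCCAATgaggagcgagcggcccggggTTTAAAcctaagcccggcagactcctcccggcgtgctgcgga
Cenpf: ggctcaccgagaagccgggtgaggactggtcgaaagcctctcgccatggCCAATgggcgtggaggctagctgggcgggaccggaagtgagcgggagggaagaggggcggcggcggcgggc
Hmmr: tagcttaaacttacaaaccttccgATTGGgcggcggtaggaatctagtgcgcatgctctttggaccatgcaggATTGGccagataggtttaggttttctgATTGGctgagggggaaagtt
Prc1: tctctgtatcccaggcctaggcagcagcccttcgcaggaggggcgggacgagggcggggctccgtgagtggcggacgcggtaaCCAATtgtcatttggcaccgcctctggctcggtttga

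In 250 bases before the start, CCAAT stood in 33 of 39 matched genes of a mitosis list (84.6%) and in 41.3% of the 9933 tested genes with a promoter in the table. TTTGAA or TTTAAA stood in 48.7% of the mitosis genes, and in 20.3% of the tested genes. Among the 37 matched genes of a DNA replication list, 62.2% held CCAAT and 24.3% held TTTGAA or TTTAAA, while the E2F letters TTTCCCGC or TTTGGCGC stood in 18.9%, against 3.0% of the tested genes. Of 370 matched genes that were higher in the zero-count cells, 43.8% held CCAAT and 21.6% held TTTGAA or TTTAAA, close to the shares over all tested genes. Among other lists, CCAAT stood in 72.4% of 29 matched quiescence-associated genes, 52.4% of 21 G1 regulators and 21.4% of 28 growth and ribosome biogenesis genes. TTTGAA or TTTAAA stood in 10.3%, 33.3% and 21.4% of them. The E2F letters stood in 3.4%, 19.0% and 17.9% of them, so the share in the DNA replication list was not particular to it. Over all 27025 genes of the table, 37.5% held CCAAT and 28.1% held TTTGAA or TTTAAA. A match describes letters and does not show binding.

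To compare expression, UMIs were summed per library and class, and edgeR's quasi-likelihood test with the library as a block was fitted over all 6 libraries. The rule genes were left out. All 6 libraries, 4 of them GL261-GSCs, shared the estimate of the spread, with 4 residual and a median of 62.6 prior degrees of freedom. The p-values for GL261 therefore rest in part on the spread in GL261-GSCs and on that pooled across genes. Of 13822 genes tested, 1798 differed in GL261 at an adjusted p under 0.05 (13.0%): 483 were higher in the zero-count cells (3.49%) and 1315 were lower (9.51%). With a change of at least 1.5-fold as well, 369 were higher (2.67%) and 878 were lower (6.35%). The balance of directions depended on scaling and on the tool. Scaling by library size alone moved the median of all genes by 0.13 on the log2 scale and gave 836 higher and 826 lower genes, DESeq2 gave 376 and 663, and limma-voom gave 1170 and 1080. Small changes are therefore relative to the main scaling, under which the median gene changed by -0.05. Without GL261 replicate 1 the test called 980 genes and without replicate 2 it called 826. Without the library block it called 522.

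Genes of mitosis were lower in the zero-count cells, many of them to a few UMIs. Ccna2, which encodes cyclin A2 of S phase and G2 (chr3:36564865-36572150), stood at 4.34 and 9.56 CPM in the zero-count cells of replicates 1 and 2 (6 and 9 UMIs), and at 223 and 278 CPM in the cycling cells. The kinetochore gene Cenpf stood at 7.23 and 6.37 CPM against 248 and 267 CPM. For both genes the zero-count and cycling sums were far apart in each library. The log2 changes were -5.25 ± 0.23 (SE) for Ccna2 and -5.22 ± 0.22 for Cenpf, with edgeR adjusted p of 2.5e-29 and 6.1e-30. The gene lists used here and below were chosen with earlier results of these data known. All 46 genes of a mitosis list were lower, with a median log2 change of -4.18, where the median over all tested genes was -0.05. Since these genes are transcribed together with the rule genes, their fall is bound up with the choice of the cells and is given as a description.

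Other members of this program followed. The borealin gene Cdca8 of the chromosomal passenger complex had 7.96 and 10.6 CPM against 171 and 193 CPM, and its partner Incenp had 12.3 and 20.2 against 149 and 159 CPM. The spindle gene Tpx2, an activator of Aurora A, had 12.3 and 13.8 against 221 and 240.5 CPM, and Tacc3, another spindle gene, had 7.23 and 8.50 against 146 and 158 CPM. Cdc20, which activates the anaphase-promoting complex, stood at 19.5 and 17.0 CPM against 272 and 286 CPM, and Prc1, which bundles the central spindle, at 37.6 and 27.6 against 344 and 396 CPM. The largest falls outside the 3 cell cycle lists were Incenp, the formin gene Diaph3, Trim59, the Cdc7 activator gene Dbf4, the clamp loader gene Rfc5, Fam111a, Cdkn2d and the tubulin gene Tubb6. Tubb6 stood at 124 and 114 CPM in the zero-count cells and 475 and 515 CPM in the cycling cells (log2 change -2.04 ± 0.12, edgeR adjusted p = 2.4e-22).

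**Figure D1:**
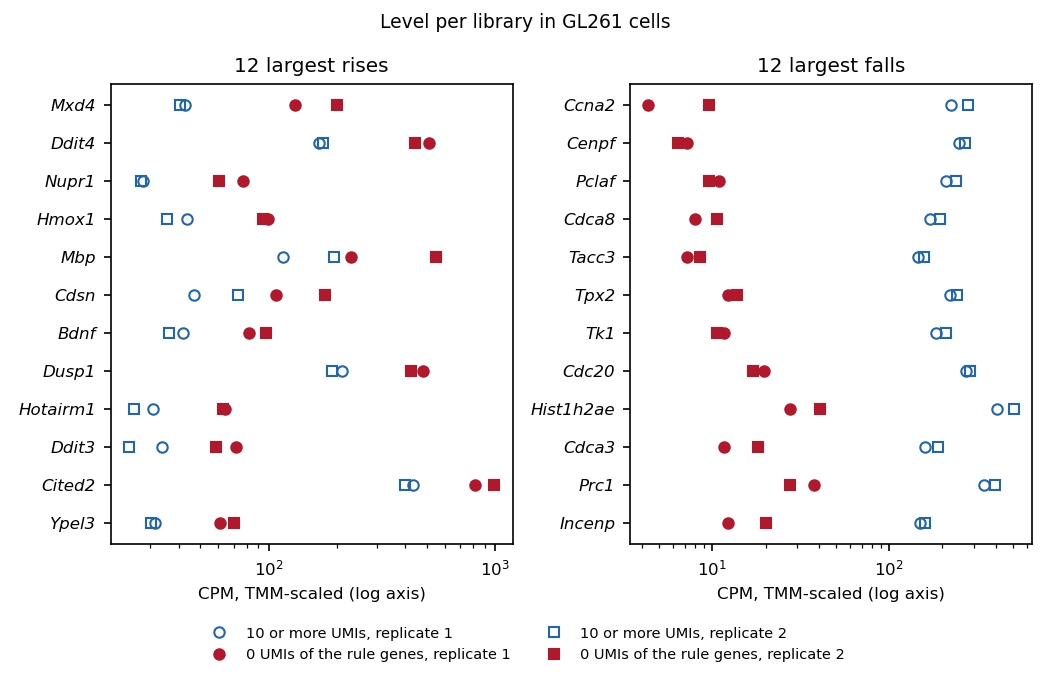
Level of the 12 genes with the largest rises (left) and the 12 with the largest falls (right) in CPM scaled by TMM on a log axis, with filled symbols for zero-count cells and open symbols for cycling cells, circles for replicate 1 and squares for replicate 2. The filled and open symbols do not overlap within a gene because the naming rule asked for both zero-count sums above or below both cycling sums, and Ccna2 ranges from 4.34 CPM in the zero-count cells of replicate 1 to 278 CPM in the cycling cells of replicate 2.

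Free RNA held Ccna2 at 236 and 285 CPM, and the level in the zero-count cells was 1.88% and 3.48% of that. For the whole mitosis list the zero-count cells held 1117 and 1161 CPM, scaled by library size alone. This was 18.5% and 18.3% of the level in free RNA and 15.3% and 14.8% of that in the cycling cells. Within the list, Arl6ip1 stood at 184 and 193 CPM in the zero-count cells and Bub3, a spindle checkpoint gene, at 127 and 115 CPM. Both were chosen as examples after their values were seen.

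Genes of DNA replication were lower too, to a lesser degree. Of 48 tested, 47 were lower, where 9.51% of all genes were, with a median log2 change of -2.01. The classes were chosen by proliferation genes. The falls of replication and histone genes are therefore also bound up with that choice and are given as a description. Pclaf, a PCNA-associated factor, had 10.8 and 9.56 CPM in the zero-count cells and 209 and 237 CPM in the cycling cells, and the thymidine kinase gene Tk1 had 11.6 and 10.6 against 184 and 209 CPM. The sliding clamp gene Pcna was at 34.0 and 36.1 CPM against 94.0 and 92.0 CPM (log2 change -1.42 ± 0.18, edgeR adjusted p = 1.9e-09). The helicase subunit genes Mcm3 and Mcm5, loaded onto origins in G1, changed by -1.80 ± 0.17 and -2.10 ± 0.19 on the log2 scale. Mcm3 stood at 59.3 and 64.8 CPM against 220.3 and 208 CPM, and Mcm5 at 35.4 and 28.7 against 143 and 133 CPM, with no overlap of the classes. Of 20 tested replication histone genes, 14 were lower, where 9.51% of all genes were, and 1 was called against cells with 1 to 9 UMIs. Hist1h2ae stood at 27.5 and 40.4 CPM against 407 and 506 CPM, and the linker histone gene Hist1h1a at 57.9 and 71.2 against 444 and 553 CPM, though histone genes have near-identical copies that can share reads.

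The zero-count cells were not without UMIs of replication genes. With each cell thinned to 8000 UMIs, a zero-count cell held a mean of 10.2 and 10.0 UMIs of the DNA replication list in replicates 1 and 2, and a cycling cell held 35.1 and 35.1. Every zero-count cell held at least 1 such UMI. Free RNA held this list at 3498 and 3774 CPM, scaled by library size alone. The level in the zero-count cells was 35.3% and 33.2% of that, and the part of free RNA in these UMIs was not tested. In replicate 1, 12 of 97 zero-count cells reached the 10th percentile of the cycling cells (17 UMIs), and in replicate 2, 9 of 76 did (18 UMIs). A single zero-count cell, in replicate 1, reached the cycling median of 34, with 39 UMIs. For the mitosis list no zero-count cell reached the 10th percentile of the cycling cells, 22 and 26 UMIs, and the highest cells held 16 and 17. The name non-cycling therefore stands for 0 captured UMIs of 7 genes, and some of these cells held UMIs of the replication list in the range of the cycling cells.

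**Figure D2:**
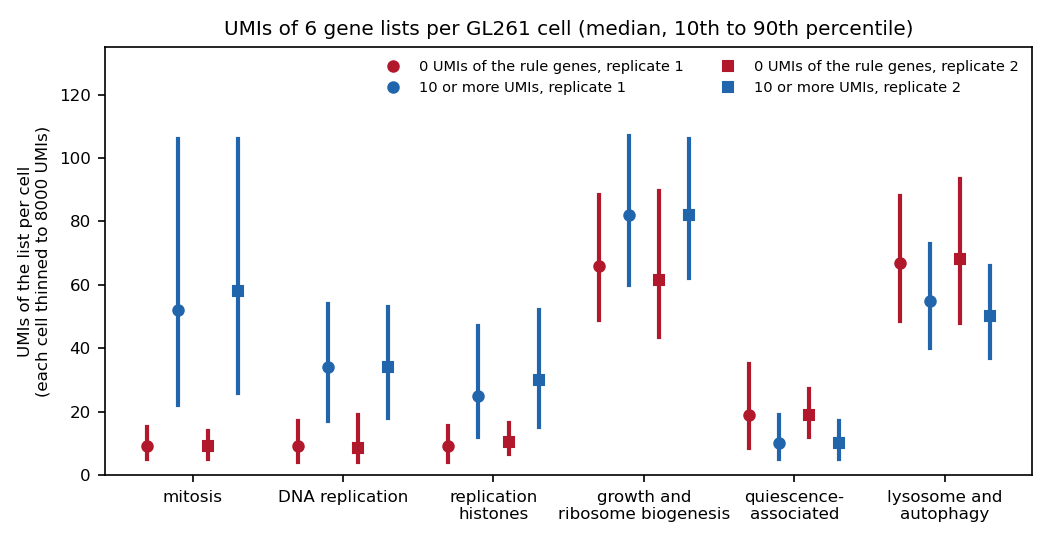
UMIs of 6 gene lists per GL261 cell after thinning each cell to 8000 UMIs, for zero-count cells (red) and cycling cells (blue), circles for replicate 1 and squares for replicate 2, with symbols at the median and bars from the 10th to the 90th percentile. The mitosis bars of the 2 classes do not meet, the DNA replication and replication histone bars touch or overlap at their ends, and the other lists overlap.

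Regulators of G1 changed in a mixed way. Of 27 tested, 10 were lower and 2 were higher, against 9.51% and 3.49% of all genes. The 2 that rose were Ccnd2 and Cdkn1a. Ccnd2, which encodes cyclin D2, stood at 302 and 279 CPM in the zero-count cells and 183 and 197 CPM in the cycling cells, and rose by 0.62 ± 0.11 on the log2 scale (edgeR adjusted p = 1.2e-05). Cdkn1a, which encodes the kinase inhibitor p21, stood at 183 and 165 CPM against 117 and 91.6 CPM and rose by 0.74 ± 0.12 (edgeR adjusted p = 2.5e-06). The classes did not overlap for either gene. The call of Ccnd2 was lost without GL261 replicate 1 and against cells with 1 to 9 UMIs. Both calls were lost without the library block, where 6 genes of the list were called.

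The other G1 inhibitors gave no such rise. Cdkn1b, the gene of p27, had 56.4 and 62.7 CPM against 52.3 and 57.8 CPM (log2 change 0.11 ± 0.15, edgeR adjusted p = 0.73), and Cdkn2a, the locus of p16 and p19ARF, had 553 and 524 against 573 and 569 CPM (log2 change -0.08 ± 0.10, edgeR adjusted p = 0.68). Cdkn1c, the gene of p57, had too few UMIs to be tested. Cdkn2d, which encodes the inhibitor p19INK4d, fell, with 19.5 and 22.3 CPM against 77.7 and 98.9 CPM (log2 change -2.06 ± 0.19, edgeR adjusted p = 4.4e-14). Cdkn2c, the gene of p18INK4c, held 3 UMIs in the zero-count cells of replicate 1 and 0 in replicate 2, beside 18.0 and 22.2 CPM in the cycling cells. So the kinase inhibitors of this line did not move together.

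Several cyclin and kinase genes of the G1 to S step were lower. The classes were chosen by proliferation genes, so these falls, and that of Cdkn2d, are given as a description. Ccne2, 1 of the 2 cyclin E genes, had 3.62 and 2.12 CPM against 18.3 and 20.1 CPM, with only 5 and 2 UMIs in the zero-count cells. Ccne1, the other, had 34.7 and 26.6 against 55.1 and 56.9 CPM (log2 change -0.84 ± 0.20, edgeR adjusted p = 0.0015), and its call was lost with DESeq2, without the library block, without GL261 replicate 2 and against cells with 1 to 9 UMIs. Cdk2, the kinase partner of cyclin E, had 16.6 and 9.56 against 39.1 and 38.6 CPM, and Rbl1, the gene of the pocket protein p107, 10.1 and 14.9 against 38.9 and 41.7 CPM. Fzr1, which encodes the G1 activator CDH1 of the anaphase-promoting complex, had 41.2 and 32.9 against 93.2 and 101 CPM (log2 change -1.36 ± 0.16). The calls of Fzr1, Ccne2, Cdkn2d and Cdkn2c were lost against cells with 1 to 9 UMIs. Ccnd1, the cyclin D1 gene, had 1023 and 865 against 1101 and 1159.6 CPM and a change of -0.26 ± 0.10 that did not pass (edgeR adjusted p = 0.072), and neither did Ccnd3 at -0.31 ± 0.13 (edgeR adjusted p = 0.12). Of the 23 alternative settings, 6 called Ccnd1 and 3 called Ccnd3, each lower. CPM is not divided by transcript length, so levels are compared within a gene.

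Across cells grouped by their rule gene UMIs, levels also differed between the classes above 0. In cells with 0, 1 to 3, 4 to 9, 10 to 24 and 25 or more rule gene UMIs, Mxd4 stood at 133, 131, 113, 74.5 and 28.8 CPM in replicate 1 and 207, 132, 99.3, 61.0 and 30.4 CPM in replicate 2, here scaled by library size alone. Ddit4 stood at 521, 417, 319, 243 and 127 CPM in replicate 1 and 458, 442, 341, 223 and 142 CPM in replicate 2. Both genes were lower in each next class in both replicates. Mcm3 had another shape, with 60.4, 71.7, 154, 241 and 195 CPM in replicate 1 and 67.1, 89.0, 158, 239 and 177 CPM in replicate 2, and was highest in the class of 10 to 24 UMIs. Ccnd1 was highest at 4 to 9 UMIs, with 1042, 1073, 1256, 1169.5 and 987 CPM in replicate 1 and 895, 1082, 1321, 1232 and 1018 CPM in replicate 2. When cells with 1 to 9 UMIs took the place of the cycling cells, 128 genes were called, of which 126 were among the 1798.

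**Figure D3:**
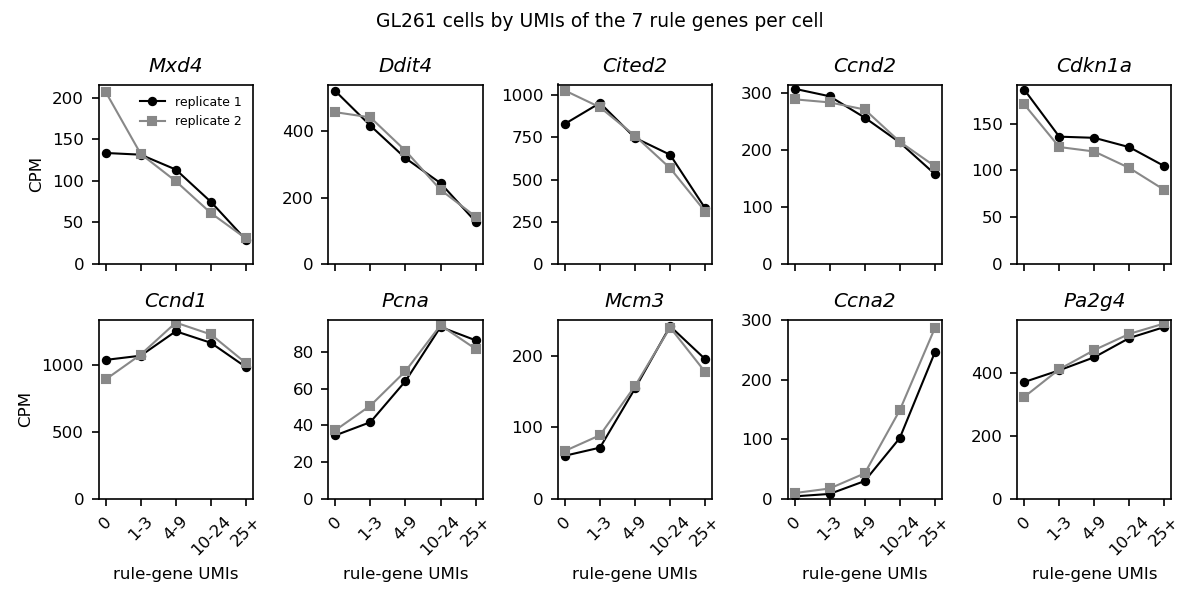
Level of 10 genes in CPM, scaled by library size, in GL261 cells grouped by their UMIs of the 7 rule genes (0, 1 to 3, 4 to 9, 10 to 24, 25 or more), with 1 line per replicate. Mxd4, Ddit4, Cited2, Ccnd2 and Cdkn1a are lowest in the class of 25 or more UMIs, Pcna and Mcm3 are highest at 10 to 24 UMIs and Ccnd1 at 4 to 9.

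Genes associated with quiescence and withdrawal from growth were higher in part. Of 28 tested in a list of them, 12 were higher and 1 was lower, where 3.49% of all genes were higher, and the list median was 0.33 against -0.05. Without the library block 3 genes of the list were called. Mxd4 (chr5:34173883-34187720) encodes MAD4, a partner of MAX that opposes MYC at its target genes. It stood at 131 and 199.7 CPM in the zero-count cells and 42.9 and 40.5 CPM in the cycling cells, the largest of the 12 largest rises named by the rule on level and overlap (log2 change 1.95 ± 0.15, or 3.87-fold, edgeR adjusted p = 3.3e-18). The call of Mxd4 was kept in all 23 alternative settings, with log2 changes of 0.47 to 2.26. Its relative Mxi1, also a MYC antagonist, had 31.8 and 32.9 CPM against 18.6 and 19.6 CPM (log2 change 0.77 ± 0.21). Myc itself stood at 194 and 183 CPM against 166 and 137 CPM and its change of 0.31 ± 0.12 did not pass (edgeR adjusted p = 0.063), but 14 of the 23 settings called it higher.

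Ddit4 (chr10:59949669-59951834) encodes REDD1, an inhibitor of the growth kinase mTORC1. It had 512 and 442 CPM in the zero-count cells and 166 and 175 CPM in the cycling cells. In the fit it was 2.80 times as high (log2 change 1.49 ± 0.11, edgeR adjusted p = 2.2e-18), and its call was lost without the library block. The other genes of the list that rose included the antiproliferative Tob1 with 99.8 and 79.7 CPM against 45.3 and 43.2 CPM, and Btg1 with 50.6 and 59.5 against 36.9 and 40.4 CPM. Ypel3 and Ypel5 are members of the Yippee-like family. Ypel3 had 60.7 and 70.1 CPM against 31.5 and 30.3 CPM and Ypel5 had 47.7 and 43.6 against 22.8 and 22.5 CPM. The sestrin gene Sesn3, another brake on mTORC1, had 19.5 and 30.8 against 13.0 and 13.5 CPM, and the nuclear receptor coactivator gene Pnrc1 had 90.4 and 83.9 against 44.7 and 44.4 CPM. The gene that fell was Zfp36l2, which encodes an mRNA decay factor, at 55.0 and 56.3 CPM against 80.4 and 89.2 CPM. Per cell, at 8000 UMIs, the list gave a mean of 21.2 and 20.1 UMIs in the zero-count cells and 11.5 and 10.9 in the cycling cells, and 45 of 97 and 45 of 76 zero-count cells lay above the 90th percentile of the cycling cells.

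Genes of growth and ribosome biogenesis moved the other way. Of 34 tested, 19 were lower and none was higher (edgeR, adjusted p under 0.05), against 9.51% of all genes lower, and the median was -0.43. The growth-regulated RNA-binding protein gene Pa2g4 had 365 and 313 CPM in the zero-count cells and 574 and 599.8 CPM in the cycling cells (log2 change -0.79 ± 0.11). Nhp2, a subunit of box H/ACA ribonucleoproteins, had 399 and 391 against 648 and 667 CPM (log2 change -0.73 ± 0.10). Both genes lay lower in each zero-count sum. The nucleolar genes Ncl and Npm1 changed by -0.66 ± 0.11 and -0.59 ± 0.10, and the polyamine synthesis gene Srm by -0.50 ± 0.11. Ribosomal protein genes hardly took part: 3 of 79 were lower and none was higher, with a median of -0.12. Without the library block, 1 gene of the growth list was called.

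Other genes among the 12 largest rises were Nupr1, Hmox1 and Ddit3. Nupr1, a stress-induced nuclear protein gene, had 76.7 and 60.6 CPM in the zero-count cells and 28.0 and 27.2 CPM in the cycling cells (log2 change 1.33 ± 0.19). Hmox1, which encodes heme oxygenase 1, had 99.8 and 94.5 against 43.6 and 35.6 CPM (log2 change 1.29 ± 0.24). The call of Hmox1 was lost with DESeq2, without the library block and against cells with 1 to 9 UMIs. The last 2 settings also lost the call of Nupr1. Ddit3, which encodes the stress factor CHOP, had 71.6 and 58.4 against 34.0 and 24.1 CPM, but a single cell gave 36.4% of its UMIs in replicate 1. Some called genes are counted in more than 1 list, so the list counts are not separate. Ddit4 and Dusp1 of the quiescence-associated list also count under amino acid stress and immediate early genes. Sesn2 counts under amino acid stress and p53 targets, and Cdkn1a under G1 regulators and p53 targets. Cdk4 and Ldha of the growth list also count under G1 regulators and hypoxia. Of 34 tested genes of the amino acid stress response, 7 were higher and 3 were lower, with a median of 0.18, where 3.49% and 9.51% of all genes were. The lower count is near the share over all genes, and every call of the list was lost without the library block. The ATF4 targets Trib3 and Atf5 changed by 0.83 ± 0.20 and 0.62 ± 0.15, and the serine and glycine enzyme genes Shmt1, Shmt2 and Psat1 by -1.44 ± 0.20, -0.50 ± 0.12 and -0.41 ± 0.12.

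Lysosomal and autophagy genes were higher in part. Of 36 tested, 6 were higher and none was lower (edgeR), where 3.49% of all genes were higher. The median was 0.23, and 33 of the 36 had a positive estimate, where 44.7% of all tested genes did. Sqstm1, the gene of the autophagy receptor p62, stood at 883 and 719 CPM against 465 and 418 CPM (log2 change 0.86 ± 0.14, edgeR adjusted p = 8.9e-07), and a single cell gave 19.7% of its UMIs in replicate 1. Gabarapl1 had 45.6 and 47.8 CPM against 24.7 and 26.1 CPM and the cathepsin gene Ctsl 499.7 and 548 against 389 and 343 CPM. In GL261-GSCs 30 of the 36 were higher, where 14.2% of all genes were. The GL261 count ran from 0 to 19 over the alternative settings, none of which called a gene of the list lower, and was 1 without the library block.

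Immediate early genes, which respond within minutes to serum and growth factors, gave 6 higher and 4 lower of 31 tested, where 3.49% and 9.51% of all genes were. The lower count is near the share over all genes, and every call of the list was lost without the library block. Dusp1, a MAP kinase phosphatase gene, had 482 and 427 CPM in the zero-count cells and 211 and 191 CPM in the cycling cells (log2 change 1.18 ± 0.10, edgeR adjusted p = 6.8e-15), and Klf4 had 235 and 206 against 141 and 149 CPM. Fosl1, the gene of FRA-1, had 70.9 and 47.8 against 103 and 104 CPM and Egr1 had 41.2 and 22.3 against 103 and 31.5 CPM, with changes of -0.77 ± 0.16 and -1.08 ± 0.27, and the call of Fosl1 was lost without GL261 replicate 2. Fos differed between libraries, with 56.4 and 11.7 CPM against 26.5 and 14.1 CPM, so that it was higher in the zero-count cells of replicate 1 and not of replicate 2. Of the p53 targets, 3 of 26 were higher: Cdkn1a, the apoptosis gene Bbc3 and Sesn2. Without the library block 1 gene of the list was called. Mdm2, a p53 target that limits p53, had 87.5 and 81.8 CPM against 81.3 and 83.6 CPM and a change of 0.05 ± 0.15 (edgeR adjusted p = 0.9). The only p53-list gene that was lower, Psrc1, also acts at the mitotic spindle and held 1 UMI in the zero-count cells of each replicate.

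The remaining large rises included Cited2, Bdnf, Mbp, Hotairm1 and Cdsn. Against cells with 1 to 9 UMIs the calls of Cited2, Bdnf and Hotairm1 were lost. Without the library block those of Bdnf, Mbp, Hotairm1 and Cdsn were lost, and those of Mbp and Cdsn also with DESeq2. Cited2, which encodes a CBP and p300 partner, stood at 816 and 993 CPM against 435 and 399.7 CPM (log2 change 1.11 ± 0.11, edgeR adjusted p = 2.0e-13). The neurotrophin gene Bdnf had 81.7 and 97.7 CPM in the zero-count cells and 41.9 and 36.1 CPM in the cycling cells (log2 change 1.19 ± 0.16). Mbp, the myelin basic protein gene, had 231 and 548 CPM against 115 and 194 CPM. For Mbp the zero-count cells of each replicate lay above its cycling cells, and replicate 2 was higher than replicate 1 in both classes. Hotairm1, a noncoding RNA of the Hoxa cluster, had 64.4 and 62.7 against 30.8 and 25.5 CPM, and Cdsn, the gene of corneodesmosin, 108 and 177 against 46.6 and 73.2 CPM. Of 18 tested genes of neural differentiation, 5 were higher and 1 was lower, where 3.49% and 9.51% of all genes were, and every call of the list was lost without the library block. Of 22 tested neural progenitor genes, 1 was higher and 3 were lower, near the shares over all genes, and every call of this list too was lost without the library block. Of these, Sox2, a neural stem cell factor, was lower at 45.6 and 42.5 CPM against 73.7 and 73.3 CPM (log2 change -0.73 ± 0.17, edgeR adjusted p = 7.4e-04), and Sox4 was higher at 448 and 455 against 324 and 299 CPM. The call of Sox4 was lost without GL261 replicate 2. The intermediate filament genes Vim and Nes changed by -0.07 ± 0.09 and -0.09 ± 0.10 and did not pass (edgeR adjusted p = 0.71 and 0.65), and their sign depended on the scaling.

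Of 34 tested matrix and mesenchymal genes, 6 were higher and 3 were lower, the latter near the 9.51% of all genes. Timp3, a metalloproteinase inhibitor gene, stood at 3448 and 4737 CPM in the zero-count cells and 2138 and 3139.9 CPM in the cycling cells (log2 change 0.64 ± 0.10), while its relative Timp1 stood at 499 and 414 against 783 and 795 CPM (log2 change -0.79 ± 0.10). The osteopontin gene Spp1 was called higher only through a single cell, which held all 68 UMIs of replicate 2, and replicate 1 held 0. Cd44, a hyaluronan receptor gene, had 111 and 98.8 against 155 and 133 CPM, but its call was lost in 8 settings. Ly6a, which encodes the surface antigen Sca-1, had 563 and 829.7 against 479 and 639 CPM (log2 change 0.30 ± 0.10), and its call was lost in 6 settings, including without either GL261 replicate. Of 26 contractile and serum response genes, 7 were lower and 1, Ctgf, was higher, the latter near the 3.49% of all genes. Every call of both lists was lost without the library block. The count of contractile genes called moved by more than 1.5 times in 17 of 23 settings. It ran from 0 to 14, with 0 also by DESeq2, at 12000 UMIs and against cells with 1 to 9 UMIs, and was 4 without GL261 replicate 1 and 1 without replicate 2. Tagln had 50.6 and 114 CPM against 103 and 136 CPM, a single cell gave 32.7% of its UMIs in replicate 2, and its call was lost in 6 settings, including without GL261 replicate 1. Acta2 had 264 and 190.2 against 244 and 294 CPM and did not pass (edgeR adjusted p = 0.26), but was called lower in 3 settings.

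The remaining lists are to be read against 3.49% of all genes higher and 9.51% lower. Of 13 tested heat shock genes, 4 were lower, among them Hspd1 at 921 and 836 CPM against 1196 and 1239 CPM. Of 32 hypoxia and glycolysis genes, 1 was higher and 3 were lower, near the share over all genes. Every call of the heat shock, hypoxia, sterol synthesis, interferon and antigen presentation lists was lost without the library block. The mitophagy receptor gene Bnip3l rose by 0.76 ± 0.14 and Ldha fell, at -0.40 ± 0.11, with its call lost in 9 settings. The calls of Hspd1, Bnip3l and Ldha were each lost without GL261 replicate 2. Of 33 interferon response genes 2 were higher, Ifit1 and Oasl2. Both were higher in replicate 1 than in replicate 2: Ifit1 held 63 and 5 UMIs in the zero-count cells of replicates 1 and 2, and Oasl2 held 59 and 7. The call of Oasl2 was lost in 7 settings, including without GL261 replicate 1. The call of Ifit1 was lost in 8 settings and its change was -0.32 without GL261 replicate 1. Antigen presentation gave 2 of 18 genes higher, Tap2 and H2-D1, whose calls were lost in 6 and 8 settings, including without either GL261 replicate. Sterol synthesis gave 2 of 25 higher, Hmgcs1 and Msmo1. The call of Hmgcs1 was lost without GL261 replicate 1, and that of Msmo1 without either replicate. Endoplasmic reticulum chaperones gave 2 higher and 1 lower of 20, and nuclear RNAs 2 higher of 5. The nuclear RNAs Neat1 and Mir99ahg lost their calls in 4 and 7 settings, and Neat1 was reversed in 1 more. The chaperone list genes Herpud1 and Dnajb11 lost theirs in 3 and 6 settings. The fit without the library block lost all 4 of these calls. Secreted factors of arrested cells gave 2 of 17 lower, Plaur and Cxcl10, near the share over all genes. A single cell held 58.0% of the Cxcl10 UMIs of replicate 1. Both calls were lost in 8 settings each, including DESeq2, no library block and without GL261 replicate 2.

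**Figure D4:**
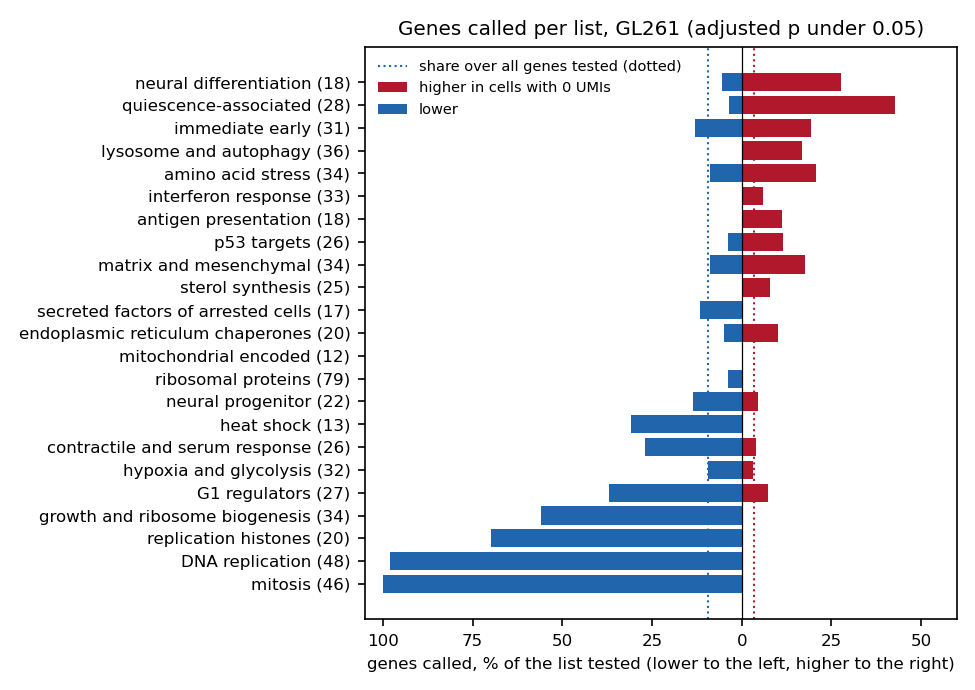
Share of each gene list called higher (red, to the right) or lower (blue, to the left) in zero-count GL261 cells, in percent of the genes tested (number in brackets), for lists with at least 10 genes tested. Dotted lines mark the shares over all 13822 genes, 3.49% higher and 9.51% lower, and the list of quiescence-associated genes reaches 12 of 28 higher.

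Defining markers of other cell types were mostly at 0, and the part of any such cells in the results was not tested. Sums over a marker list were scaled by library size alone. Of 12 microglia and macrophage markers, 8 and 9 had 0 UMIs in the zero-count cells, Ptprc, Aif1, Cx3cr1 and C1qa among them, and the list summed to 32.4 and 24.2 CPM against 23.1 and 19.8 CPM in the cycling cells. Lymphocyte markers summed to 2 and 0 UMIs. Of 8 endothelial markers 7 had 0 UMIs in both replicates, Pecam1 and Cdh5 among them, and of 9 fibroblast and pericyte markers 6 and 5 did, while Des, 1 of the 4 tested, was called higher on 7 and 1 UMIs. Of 8 neuronal markers 7 had 0 UMIs in both replicates, and the list summed to 104.6 and 124 CPM against 82.8 and 85.1 CPM, all from Tubb3 in the zero-count cells. Oligodendrocyte lineage markers summed to 836 and 1186 CPM in the zero-count cells and 607 and 709 CPM in the cycling cells. Of the glial factors, Sox10 stood at 359 and 351 CPM against 335 and 358 CPM, and Olig2 was at 0 in the zero-count cells of both replicates. Astrocyte markers summed to 102.4 and 80.3 CPM against 90.3 and 82.1 CPM, with Aqp4 at 0. Of the 4 tested, Aldh1l1 was higher at 1.25 ± 0.35 and Gja1 was lower at -1.63 ± 0.23 on the log2 scale.

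The zero-count cells varied among themselves. At 8000 UMIs per cell, 2937 genes had a mean of at least 0.5 UMI, with a median variance over mean of 1.18, and 273 genes were above 2. The highest variance over mean was that of Timp3, at 59.1 and up to 375 UMIs in a cell. Cryab, a small heat shock protein gene, was next at 50.4 and up to 376 UMIs. Vim, Thbs1, Acta2, Sqstm1, the imprinted gene Mest, Ckb, Cdh6 and Cyr61 followed, at 12.1 to 26.2, beside the noncoding or predicted genes Gm26870, Gm42418 and Malat1. The ratio was not adjusted for level, so it does not rank genes of unlike level. Mean UMIs per cell were 115 for Vim and 2.08 for Cdh6. Gm26870 was uneven in replicate 1 (64.4) and much less so in replicate 2 (3.31). Cdh6 (22.3 and 2.14) and Sqstm1 (22.4 and 6.20) also differed in this way, while Thbs1 was more uneven in replicate 2 (10.5 and 22.6). Clustering gave 1 group at a Leiden resolution of 0.3, 3 at 0.5 and 8 at 1.0, so the number of groups was set by the resolution. At 0.5 the groups held 58, 91 and 24 cells, each with cells of both replicates. The second was led by Acta2, Thbs1 and Ctgf, with 2.99 UMIs of Acta2 per cell inside and 0.61 outside, and the third by Ddit4l and Ier5, with 6.12 UMIs of Brd2 per cell inside and 1.76 outside. The leading gene of the first, Spp1, came from 1 cell. The groups were formed on these genes, were not tested and are left unnamed.

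The same contrast in GL261-GSCs, whose cells were not used to choose the GL261 cells, gave 4432 genes called (32.1%), 1968 higher (14.2%) and 2464 lower (17.8%). The cultures differed in the number of zero-count cells and libraries, whose part in this count was not tested. All 46 mitosis genes and 47 of 48 replication genes were lower there as well, with medians of -3.81 and -1.80. The same rule genes chose the cells of that culture, so these falls are bound up with the choice there too. Of the quiescence-associated list 18 of 28 were higher, with a median of 0.84, and of growth and ribosome biogenesis 30 of 34 were lower. Mxd4 changed by 1.73 ± 0.10 and Ddit4 by 1.06 ± 0.07. Among the 12 largest rises of GL261, 10 were also called higher in GL261-GSCs, and Cdsn and Bdnf were not. The test of the difference between cultures did not pass for either (0.13 and 0.82 on the log2 scale, edgeR adjusted p = 0.97 and 0.056). Not every GL261-GSCs library shared the 10 rises. Hmox1 stood at 227 against 26.005 CPM in replicate 2 and at 15.75 against 8.73 CPM in replicate 3. It was nearly level in replicate 1 and reversed in replicate 4, at 7.03 against 11.07 CPM, with 9 UMIs in the zero-count cells. Mbp and Cited2 were slightly lower in the zero-count cells of replicate 1 and higher in those of the other replicates.

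A test of the difference itself, the interaction of class and culture, called 148 genes (1.07%): 32 had a higher change in GL261 (0.232%) and 116 a lower one (0.839%). Without the library block edgeR called 0 genes, with 481 at an unadjusted p under 0.05, while with the block DESeq2 called 51 and limma-voom 353. The count was 78 without GL261 replicate 1, 84 without replicate 2 and 77 without GL261-GSCs replicate 3. Lgals3, the galectin-3 gene, had the lowest value among the 12 genes named for this difference. In GL261 it stood at 1517 and 1464 CPM in the zero-count cells and 1198 and 1213 CPM in the cycling cells, a change of 0.31 ± 0.13 that did not pass (edgeR adjusted p = 0.13) but was called in 7 alternative settings. In GL261-GSCs replicates 1 to 4 it stood at 168, 147, 736 and 383 CPM in the zero-count cells and 39.4, 13.3, 153 and 132 CPM in the cycling cells, a rise of 2.23 ± 0.12. The difference was -1.92 on the log2 scale (edgeR adjusted p = 3.9e-12). Every GL261 sum lay above every GL261-GSCs sum for this gene.

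Gpnmb, a lysosomal and melanosomal glycoprotein gene, also rose more in GL261-GSCs. It stood at 445 and 409 CPM against 376 and 272 CPM in GL261 and at 1189.8, 1249, 1869.7 and 2299 CPM against 352, 539.6, 426 and 423 CPM in GL261-GSCs, a difference of -1.49 (edgeR adjusted p = 1.1e-09). Its rise in GL261 lost the call in 7 settings, including without GL261 replicate 2. The dystrobrevin gene Dtna and the AHNAK family gene Ahnak2 also rose more in GL261-GSCs, with differences of -1.44 and -1.35. Sox2 fell in GL261 but stood at 62.8, 147, 148 and 183 CPM against 84.9, 144, 145 and 143 CPM in GL261-GSCs, a difference of -0.81 (edgeR adjusted p = 0.014), whose call was lost in 8 of 22 settings, including without either GL261 replicate. Neto1 held 10 and 6 UMIs in the zero-count GL261 cells and Morc4 held 7 and 7, and their changes were lower in GL261 by -1.57 and -1.52. Both reached the limit of 5 in mean log2 CPM over all sums through GL261-GSCs. In GL261 alone their means were 3.45 and 3.37, so these differences rest on genes with few GL261 UMIs. These differences lost their call in 5 and 7 of 22 settings, both without GL261 replicate 1.

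In the other direction, Cited2 rose more in GL261. In GL261-GSCs it stood at 80.0, 147, 145 and 100 CPM against 82.4, 88.4, 98.1 and 86.7 CPM, and the difference was 0.69 (edgeR adjusted p = 0.0036). The metalloproteinase gene Mmp15 had 51.3 and 48.9 CPM against 32.6 and 29.7 CPM in GL261 and 156, 183, 181 and 249.9 CPM against 195, 221, 221 and 273 CPM in GL261-GSCs, so that it was higher in the zero-count cells of GL261 (a call lost without either GL261 replicate) and lower in those of each GL261-GSCs library. Rhox5, a homeobox gene, had 38.3 and 28.7 against 19.4 and 18.6 CPM in GL261. In the zero-count cells of GL261-GSCs it ranged from 0 to 503 CPM between libraries. Its mean log2 CPM in GL261 was 4.66, under the limit of 5 that it passed over all sums. Anln, the gene of the cytokinesis scaffold anillin, fell less in GL261. It stood at 69.4 and 62.7 CPM against 481 and 509 CPM there and at 7.61, 16.2, 4.85 and 5.47 CPM against 112, 104, 128 and 146 CPM in GL261-GSCs, a difference of 1.16 (edgeR adjusted p = 0.026). The cytokinesis gene Racgap1 and the tubulin gene Tubb4b gave differences of 1.37 and 0.92. Of 22 alternative settings, 13 lost the call of the Anln difference, 12 that of Racgap1, 7 that of Rhox5, 6 that of Cited2, 5 that of Tubb4b and 4 that of Mmp15. Without GL261 replicate 1 all of these but Cited2 were lost, and without GL261 replicate 2 those of Racgap1, Cited2 and Mmp15.

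**Figure D5:**
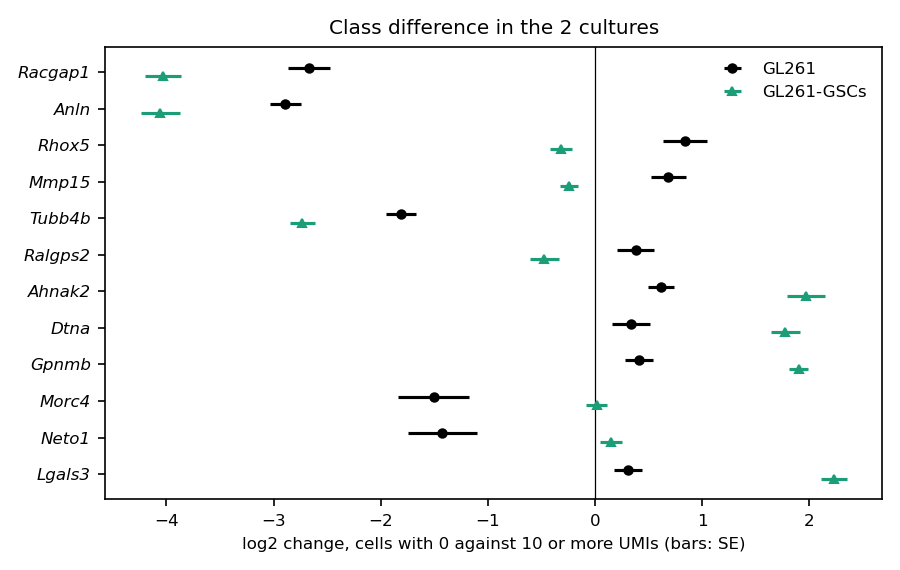
Log2 change of zero-count against cycling cells in GL261 (black circles) and GL261-GSCs (green triangles), with SE bars, for the 12 genes named by the largest difference between the cultures. Lgals3 changed by 0.31 in GL261 and 2.23 in GL261-GSCs, and Rhox5, Mmp15 and Ralgps2 lie on opposite sides of 0. So do Neto1 and Morc4, with GL261-GSCs changes of only 0.15 and 0.016.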

How the data were processed

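Single-cell RNA was measured in 2 GL261 and 4 GL261-GSCs libraries. The authors deposited unnormalized counts of UMIs for all barcodes. Per the file headers the matrices come from Cell Ranger 4, and the submitters' processing notes name mm10. No source used here gives the counting settings. The cells and the gene lists were chosen with earlier results of these data known. Here, cells were kept at 8000 UMIs or more, 500 genes or more and under 10% mitochondrial UMIs, no doublet caller was run, and a setting without cells above 2 times the median UMIs was tried instead. Counts were summed per library and class (12 sums, 4 residual degrees of freedom) and fitted with edgeR 4.0.16 (glmQLFit and glmQLFTest, TMM, filterByExpr, library block, Benjamini-Hochberg over 13822 genes, 2-sided), in R 4.3.3. The classes of a library share their droplets and sequencing run, which is why the library is the block. DESeq2 1.42.0 and limma 3.58.1 were alternatives. The fit was tested on simulated sums with 1 common spread for all genes. It recovered 49 of 100 genes given a log2 change of 1 in size and 78 of 100 given 2. Among its 133 calls 6 were false, and 5 calls of the difference between cultures were false. A gene that did not pass can therefore still differ. Named genes were first the 12 largest rises and falls, and the 8 largest falls outside 3 cell cycle lists, with an adjusted p under 0.05, a mean level of 5 or more in log2 CPM in GL261 and classes that did not overlap. Next came the 6 largest differences between cultures each way with an adjusted p under 0.05 and that mean level over all sums. With no limit on level, overlap or p, the 2 genes of smallest p in each list and fixed G1 and marker genes were added. Predicted and mitochondrial genes were left out of the first 3. Promoters shown beside the rule genes, and further list genes given as examples were chosen after their values were seen. CPM are scaled by TMM unless stated, but sums over marker lists and values set beside free RNA were scaled by library size alone. Per-cell values come from cells thinned to 8000 UMIs, except those of single rule genes, which come from whole cells. Of 54446 identifiers, 99.9% matched the GENCODE annotation without their version. Promoters are from RefSeq, build GRCm38.p6. A zero-count sum held 1357638 and 909040 UMIs in GL261, which limits low genes to a few counts.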

Additional observations from a re-analysis of the deposited data

Results flagged for a closer look

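The difference between zero-count and cycling cells differed between GL261 and GL261-GSCs for 19 of 99 named genes. The test was edgeR's interaction test at an adjusted p under 0.05, which 1.07% of tested genes passed. Of the 19, 12 were named because they passed it, so the 2 shares cannot be compared. The values below are the change in GL261 minus that in GL261-GSCs on the log2 scale. It was 3.23 for Spp1, whose GL261 UMIs came from a single cell, 1.37 for Racgap1, 1.16 for Anln, 1.16 for Rhox5, 0.92 for Mmp15 and 0.92 for Tubb4b. It was 0.86 for Ralgps2, 0.73 for Hmgcs1 and 0.69 for Cited2. On the lower side it was -2.59 for Cdkn2c, which held 3 UMIs in the zero-count GL261 cells, -1.92 for Lgals3, -1.57 for Neto1, -1.52 for Morc4 and -1.49 for Gpnmb. It was -1.44 for Dtna, -1.35 for Ahnak2, -0.97 for Nupr1, -0.81 for Sox2 and -0.60 for Plaur. Without the library block edgeR called 0 genes for this difference, with 481 at an unadjusted p under 0.05, while with the block DESeq2 called 51 and limma-voom 353. Of 22 alternative settings, 15 lost the call for Plaur, 14 for Nupr1, 13 for Anln, 12 for Racgap1, 12 for Ralgps2, 8 for Sox2, 7 each for Hmgcs1, Rhox5 and Morc4, 6 for Cited2, 5 each for Neto1 and Tubb4b and 4 for Mmp15, while 2 each lost it for Lgals3, Dtna and Ahnak2 and 1 for Gpnmb. For Cdkn2c 10 of the 21 settings that gave a value lost it, and for Spp1 4 of 21 lost it and 3 reversed it.

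Among GL261-GSCs libraries, the median UMIs of the zero-count cells in replicate 1, 12230 over 36 cells, stood apart from the other replicates at 10010, 10040 and 10024. Chance sets a library apart in this way in about 1 of 20 groups. The same check was made on the share of zero-count cells, the depth of the cycling cells and each gene flagged above. No other value stood apart.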

How the results depend on the processing

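The 1798 genes called in GL261 became 1039 with DESeq2, 1011 with cells of at least 12000 UMIs, 2867 with 0 or 1 UMI allowed in the zero-count class and 128 against cells with 1 to 9 UMIs, and ranged from 826 (without GL261 replicate 2) to 1980 (without GL261-GSCs replicate 4) with a library left out. The library pairs the classes, and with no replicate block the count was 522 in GL261, 1820 in GL261-GSCs and 0 for the difference between cultures (481 at an unadjusted p under 0.05), and the fit of the GL261 libraries alone with the replicate block called 2551. The difference between cultures, 148 genes, was 51 with DESeq2, 353 with limma-voom, 67 at 12000 UMIs, 257 with 0 or 1 UMI, 13 against cells with 1 to 9 UMIs and 68 with cycling cells sampled to the depth of the zero-count cells, and ranged from 77 to 215 with a library left out. GL261-GSCs, 4432 genes, gave 2270 at 12000 UMIs, 1269 against cells with 1 to 9 UMIs, and 2933 to 4361 with a library left out, the lowest without GL261-GSCs replicate 3. The mean share of zero-count GL261 cells, 2.18%, was 2.79% at 5000 UMIs, 1.52% at 12000, 6.01% with 0 or 1 UMI and 4.95% after thinning. Sampling the cycling cells to the depth of the zero-count cells gave 1395 genes in GL261, 1275 of them among the 1798. With each gene's highest cell left out of every sum, an alternative added after seeing the data, 1539 were called, 1326 of them shared.

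Of 84 named genes called in GL261, 48 kept their call in all 23 alternatives other than the fit without the block, which lost 49, and the contrast with cells of 1 to 9 UMIs, which lost 55. The called genes that reversed were Spp1, Ifit1 and Neat1. Spp1 went to -8.70 without GL261 replicate 2, -7.95 at 12000 UMIs and -7.84 without its highest cell, against 4.98 without replicate 1, since 1 cell held its UMIs. The Spp1 difference between cultures went to -8.97, -6.53 and -7.35 in the same settings, against 4.71 without replicate 1. Ifit1 ranged from -0.32 without GL261 replicate 1 to 1.01 without replicate 2, and Neat1 went to -0.093 against cells with 1 to 9 UMIs. Genes that had not passed also changed sign. Vim was 0.069 with library size, 0.034 with DESeq2, 0.0098 with 0 or 1 UMI, 0.013 thinned, 0.047 at matched depth and 0.074 without its highest cell. Nes was 0.049 with library size, 0.014 with DESeq2, 0.061 at 12000 UMIs, 0.040 at matched depth and 0.035 without its highest cell. Cdkn2a was 0.057 with library size, 0.022 with DESeq2 and 0.063 without its highest cell. With a library left out, Mdm2 ranged from -0.073 without GL261 replicate 1 to 0.093 without GL261-GSCs replicate 2, and it was -0.037 with 0 or 1 UMI. Cdkn1b was -0.024 thinned, Myc was -0.022 against cells with 1 to 9 UMIs, and Acta2 ranged from -0.67 without GL261 replicate 1 to 0.075 without replicate 2. Apart from Spp1 and settings that use fewer cells or libraries, the cause was not tested.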
